A study of Mus musculus with 5 samples.

Results

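The genes described here build and read the lipid signal that starts from phosphatidylinositol bisphosphate (PIP2) in the cell membrane. They are 36 genes of 23420 gene symbols in the files, taken from a fixed list of symbols: the phospholipases C (PLC), the phosphatidylinositol phosphate kinases (PIP kinases), the diacylglycerol kinases (DGK) and the protein kinases C (PKC). The list was chosen with earlier results of these data known. Of the 36 genes, 35 were expressed, that is, their regularized log values averaged 5 or more across the 5 libraries. Dgkk, a DGK of type II, lay below that level, with values between 3.18 and 3.24, and was left out of counts and medians.

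RNA-Seq was performed on the microdissected dentate gyrus (DG), the input region of the hippocampus, of wild-type male mice of the outbred CD1 strain at an age of 4 months. LD mice were housed alone with a locked disk that could not turn, RUN mice alone with a running disk, and CE mice in groups with a locked disk and tunnels that were moved daily, all for 4 weeks. RNA of 8 mice was pooled for each of the LD, CE and RUN libraries. The L-RUN and H-RUN libraries held the RNA of the 4 runners with the shortest and the 4 with the longest running distances, so that RUN is a pool of the same 8 mice. CE differs from LD in both company and tunnels, and these cannot be told apart.

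PIP2 is made by PIP kinases and is split by PLC, downstream of receptors coupled to Gq proteins, into soluble inositol trisphosphate (IP3), which releases calcium from internal stores, and diacylglycerol (DAG), which stays in the membrane. DAG recruits the conventional PKC enzymes and a calcium-independent group, but not the atypical ones, and DGK ends that signal by turning DAG into phosphatidic acid. In hippocampal neurons the pathway acts downstream of metabotropic glutamate and muscarinic acetylcholine receptors and takes part in synaptic plasticity.

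Of all members, Dgkh (DGK eta), Prkcb (PKC beta), Dgki (DGK iota) and Prkcd (PKC delta) ranged most widely over the 5 libraries. The stretches of 250 bases before their RefSeq start sites (GRCm38.p6) are shown so that the starts of the genes with the widest ranges can be compared. Capitals mark motifs found by their letters on either strand: the GC box (GGGCGG), the E-box (CACGTG), the CCAAT box (CCAAT) and the TATA box (TATAAA). The windows are chr14:78732730-78732979 (minus strand) for Dgkh, chr7:122288875-122289124 (plus strand) for Prkcb, chr6:37299977-37300226 (minus strand) for Dgki and chr14:30626209-30626458 (minus strand) for Prkcd.
Dgkh: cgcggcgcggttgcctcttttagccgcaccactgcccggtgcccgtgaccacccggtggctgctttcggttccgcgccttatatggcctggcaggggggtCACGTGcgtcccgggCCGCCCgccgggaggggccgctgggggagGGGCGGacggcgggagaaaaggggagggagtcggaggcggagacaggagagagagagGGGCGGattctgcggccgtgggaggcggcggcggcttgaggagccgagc
Prkcb: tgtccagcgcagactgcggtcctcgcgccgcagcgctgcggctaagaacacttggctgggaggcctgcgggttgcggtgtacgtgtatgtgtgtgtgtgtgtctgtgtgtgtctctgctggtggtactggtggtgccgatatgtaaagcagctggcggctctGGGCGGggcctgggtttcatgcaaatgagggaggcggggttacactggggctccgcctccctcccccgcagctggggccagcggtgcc
Dgki: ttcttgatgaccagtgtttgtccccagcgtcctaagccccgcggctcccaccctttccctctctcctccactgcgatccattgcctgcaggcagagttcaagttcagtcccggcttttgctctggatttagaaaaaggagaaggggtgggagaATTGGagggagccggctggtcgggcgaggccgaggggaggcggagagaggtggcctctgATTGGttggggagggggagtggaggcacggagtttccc
Prkcd: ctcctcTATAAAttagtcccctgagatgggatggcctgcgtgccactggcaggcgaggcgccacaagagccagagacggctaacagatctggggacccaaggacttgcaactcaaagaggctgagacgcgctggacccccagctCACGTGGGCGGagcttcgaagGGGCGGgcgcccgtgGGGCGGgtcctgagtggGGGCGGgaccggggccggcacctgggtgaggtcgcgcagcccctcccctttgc

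The 4 windows did not share a motif. Dgkh held 3 GC boxes and 1 E-box, and Prkcb held 1 GC box. Prkcd held 4 GC boxes, 1 E-box and 1 TATA box, and its E-box overlaps the GC box that follows it. Dgki held 2 CCAAT boxes, both on the opposite strand, and no GC box. A window was found for 32 members, of which 23 held a GC box (71.9%), against 33.0% of the windows of all 27025 genes in the RefSeq table. The windows of the members were also richer in G and C, with a median of 65.0% against 52.0% of bases. An E-box was in 18.8% of member windows and 6.04% of all windows, a CCAAT box in 28.1% and 34.5%, and a TATA box in 3.12% and 13.0%. The cAMP response element (TGACGTCA) was in 0 member windows and in 1.60% of all windows. The windows of all genes include genes not expressed here, unlike nearly all members, and the shares over expressed genes alone were not computed. These are matches of letters and not known binding sites.

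Each value below is a regularized log (rlog) value, which the authors computed from the counts of all 5 libraries at once. It is on the log2 scale and shrunk towards the mean of the gene, so that differences, and percentages computed from them, understate the change of genes with few reads. Depth is unknown, and the differences have no replicate check because each group is 1 library. A difference of at least 0.3 in size is said to pass the cut-off. The error available is how far RUN lies from the value that its H-RUN and L-RUN parts give when mixed equally. It gives a technical SD of a difference of 0.0365 over all expressed genes, from 0.0222 to 0.0473 by level of expression. It holds the noise of libraries and not the differences between mice. Differences of at least 3 technical SDs are given as well. Of the members, 13 of 36 overlap an exon of another gene on the opposite strand in the annotation, among them Dgkz, Prkca, Dgka and Plch2. Whether counting used the strand is not given in the sources used here, so reads of such pairs cannot be told apart. Exons of Dgkh overlap those of the predicted gene Gm48998 on the same strand, and exons of Prkce also overlap those of another gene on its strand. Exons of Dgki, Prkcb and Prkcd overlap no exon of another gene.

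**Figure D1:**
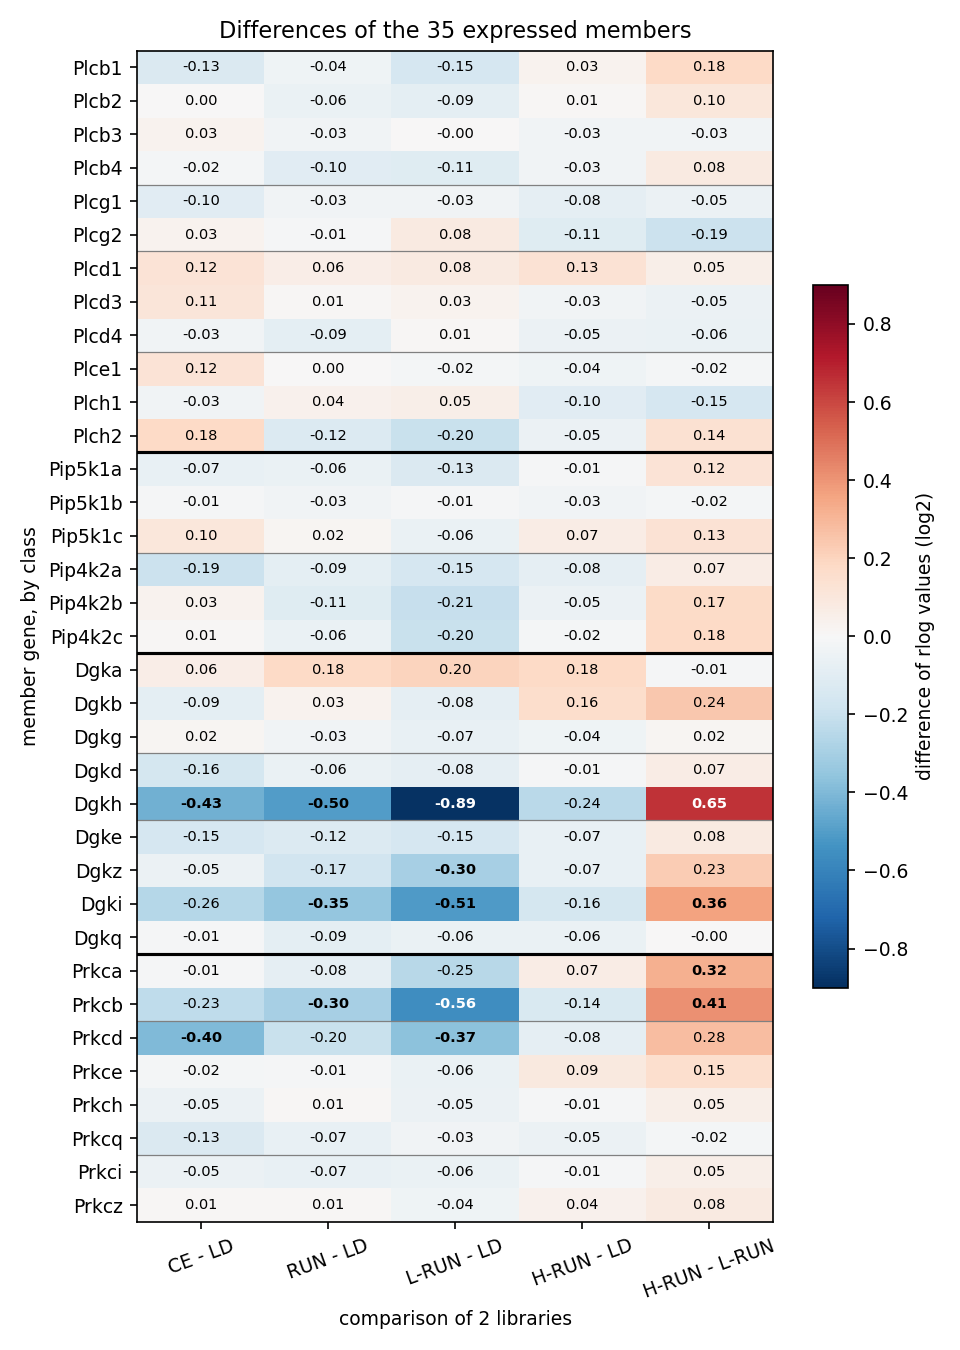
Differences of rlog values (log2) for the 35 expressed members (rows, by class; thick lines part PLC, PIP kinases, DGK and PKC) in 5 comparisons of 2 libraries (columns), with values at or past the cut-off of 0.3 in bold. The negative values past the cut-off lie in DGK and PKC rows, led by Dgkh at -0.89 in L-RUN, and H-RUN minus LD has none past it.

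The members had higher values than the typical gene, with a median of the mean rlog of 10.91 against 9.65 over all 13550 expressed genes. These values are not corrected for transcript length, whose median was 4.6 kb for members and 3.52 kb for expressed genes with a length. To compare genes with each other, the log2 of the longest transcript in kb was subtracted from the mean rlog. On this scale of level per length, Prkce (PKC epsilon, a calcium-independent PKC) was highest at 11.91, followed by Dgkz (DGK zeta, a nuclear and synaptic DGK) at 11.51 and Prkcb (a calcium-dependent PKC) at 11.47. Pip5k1c, the PIP kinase of presynaptic terminals, reached 11.12, and Dgkg (DGK gamma, a calcium-binding DGK) 10.89. The level of Plcb1, the main Gq-activated PLC of the hippocampus, was 9.90 per length, higher than that of the other 11 PLC genes. Dgkh reached 6.11 and Dgki 7.0, so that both were among the less abundant DGK genes. At the low end were Prkch (PKC eta) at 3.79, Plcb2, known from blood and taste cells, at 3.48, and Dgkk at 0.37.

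**Figure D2:**
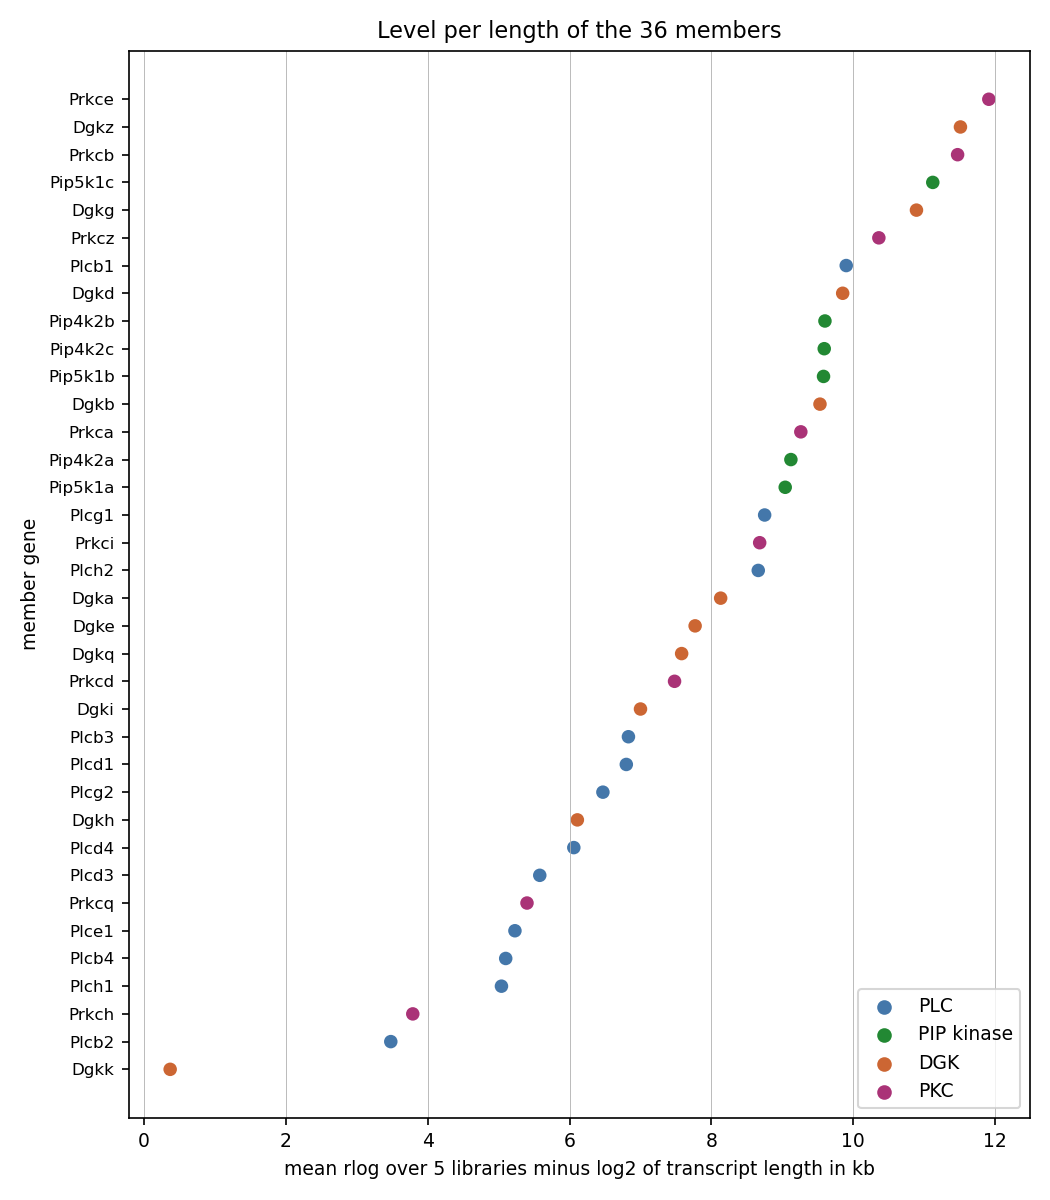
Level per length of the 36 members (mean rlog over 5 libraries minus log2 of the longest transcript in kb), with 1 point per gene coloured by family. The members spread from 0.37 for Dgkk to 11.91 for Prkce, and the 6 PIP kinases all lie above 9.

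In the DGK family, which removes DAG, Dgkh had an rlog value of 10.45 in LD and 10.02 in CE, with 10.22 in H-RUN, 9.95 in RUN and 9.57 in L-RUN. LD was thus highest, L-RUN lowest, and H-RUN nearest to LD. Against LD, the difference was -0.43 in CE, -0.24 in H-RUN, -0.50 in RUN and -0.89 in L-RUN, with a technical SD of 0.040. On the linear scale the L-RUN value differed from that of LD by -45.9%. Among the 13550 expressed genes, the L-RUN difference of Dgkh was the lowest but 1 (rank 2), its CE difference ranked 4 and its RUN difference ranked 7. H-RUN was 0.65 above L-RUN, which was rank 2 from the top. DGK eta is a widely expressed type II enzyme of the cytosol and membranes.

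Dgki encodes a type IV DGK that is enriched in brain and found at synapses. Its rlog value was 9.46 in LD and 9.20 in CE, with 9.30 in H-RUN, 9.10 in RUN and 8.94 in L-RUN. The order of the libraries was the same as for Dgkh, over a smaller range of 0.51. The differences from LD were -0.26 in CE, -0.16 in H-RUN, -0.35 in RUN and -0.51 in L-RUN (technical SD 0.042). H-RUN was 0.36 above L-RUN.

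Dgkz, the other type IV gene, had values of 13.68 in LD and 13.63 in CE, with 13.61 in H-RUN, 13.52 in RUN and 13.38 in L-RUN. L-RUN was again lowest, and its difference of -0.30 lay on the cut-off (technical SD 0.022). CE, at -0.05, was within 3 technical SDs of LD, unlike for Dgkh and Dgki.

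The type I genes, whose enzymes bind calcium, did not follow this order. Dgkb, a DGK of neurons of striatum and hippocampus, had values of 12.19 in LD and 12.11 in CE, with 12.36 in H-RUN, 12.22 in RUN and 12.11 in L-RUN. H-RUN was highest, by 0.16 over LD and 0.24 over L-RUN. Dgka, a DGK best known from T cells, was above LD by 0.18 in H-RUN, 0.18 in RUN and 0.20 in L-RUN (technical SD 0.042), and by 0.06 in CE. It was the only expressed DGK gene that was at least 3 technical SDs above LD in L-RUN. Dgkg varied by 0.09 over the 5 libraries. Dgkd, the type II relative of Dgkh, differed from LD by -0.16 in CE and by -0.08 in L-RUN, Dgke (type III) by -0.15 in both, and Dgkq (type V) ranged over 0.09. Among the 9 expressed DGK genes, 6 were lower and 1 higher than in LD by at least 3 technical SDs in L-RUN, where 19.5% of all expressed genes were lower and 13.2% higher.

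**Figure D3:**
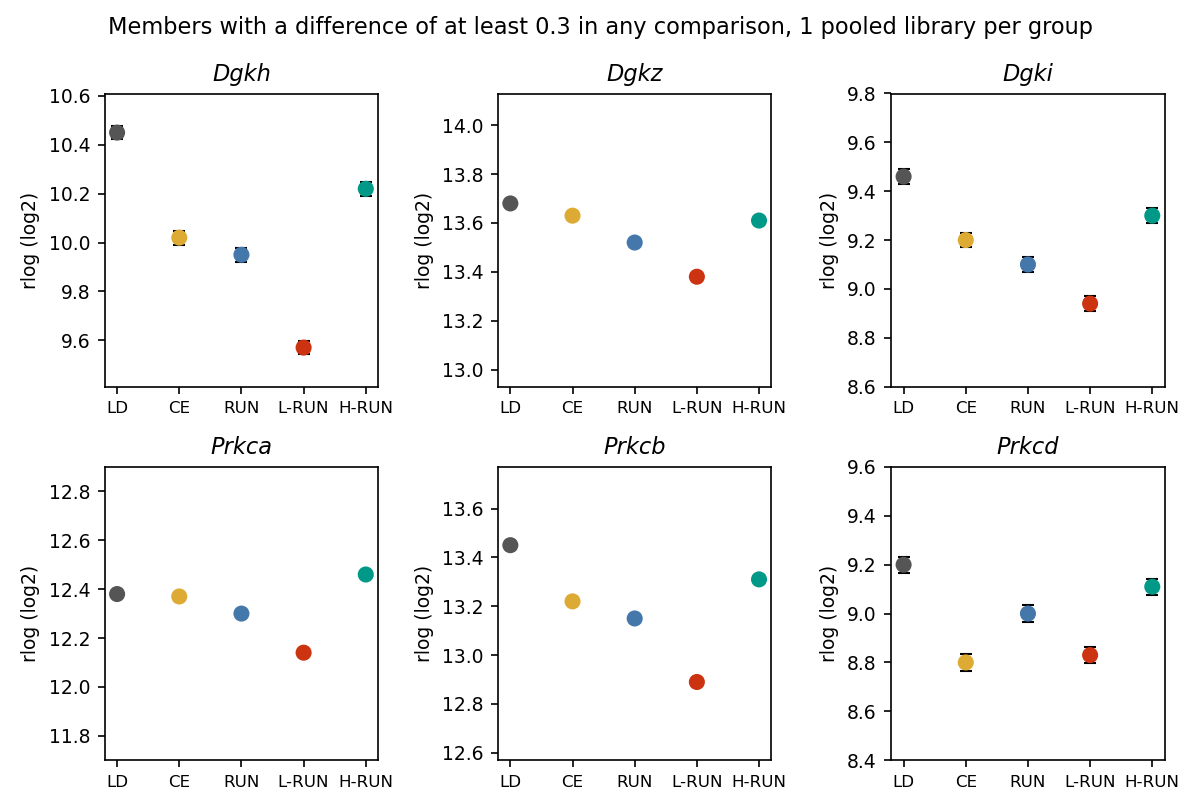
Rlog values (log2) in the 5 libraries of the 6 members with a difference of at least 0.3 in any comparison, with 1 point per pooled library and bars of 1 technical SD of a single library, many of which are smaller than the points. Every panel spans the same 1.2 log2 units. L-RUN is the lowest library for each gene except Prkcd, where CE is slightly lower.

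In the PKC family, which is activated by DAG, Prkcb had values of 13.45 in LD and 13.22 in CE, with 13.31 in H-RUN, 13.15 in RUN and 12.89 in L-RUN. The order of the libraries was that of Dgkh and Dgki. The difference from LD was -0.23 in CE, -0.14 in H-RUN, -0.30 in RUN and -0.56 in L-RUN, with a technical SD of 0.022. On the linear scale L-RUN differed from LD by -32.0%, rank 37 from the bottom of all expressed genes. PKC beta is needed for fear conditioning in mice, and by its level per length it was the most abundant conventional PKC among the members.

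Prkca, the other conventional PKC among the members, had values of 12.38 in LD and 12.37 in CE, with 12.46 in H-RUN, 12.30 in RUN and 12.14 in L-RUN. It was lower than LD by 0.25 in L-RUN, short of the cut-off, and H-RUN exceeded L-RUN by 0.32. In CE it was within 1 technical SD (0.022) of LD.

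Prkcd, a calcium-independent PKC with roles in cell death and stress signalling, had values of 9.20 in LD and 8.80 in CE, with 9.11 in H-RUN, 9.0 in RUN and 8.83 in L-RUN. CE was as low as L-RUN here, at -0.40 and -0.37 from LD (technical SD 0.047), and H-RUN was within 3 technical SDs of LD. In CE its difference ranked 9 from the bottom of the 13550 expressed genes.

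The remaining PKC genes did not pass the cut-off in any comparison. Prkce and Prkcz were higher in H-RUN than in L-RUN by 0.15 and 0.08, at least 3 technical SDs, as were 13.7% of all expressed genes. Prkce, the most abundant, stood at 14.55 in LD, 14.64 in H-RUN and 14.49 in L-RUN. Prkch and Prkcq (PKC theta, known from T cells) ranged over 0.06 and 0.13. Of the atypical genes, which need neither calcium nor DAG, Prkcz had values of 12.39 in LD and 12.40 in CE, with 12.43 in H-RUN, 12.40 in RUN and 12.35 in L-RUN, and Prkci, a cell polarity kinase, ranged over 0.07.

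Upstream of DAG, none of the 12 PLC genes and none of the 6 PIP kinase genes passed the cut-off in any of the 5 comparisons. At most 2.33% of all expressed genes were lower and 0.974% higher by it in any comparison, so few or none would pass among so few genes. At 3 technical SDs in L-RUN, 2 PLC and 4 PIP kinase genes were lower than LD and 0 higher, beside 19.5% and 13.2% of all. Plch2 (PLC eta, a calcium-sensitive neuronal enzyme) had the widest range of the PLC genes, at 11.19 in LD and 11.37 in CE, with 11.14 in H-RUN, 11.07 in RUN and 10.99 in L-RUN. It was thus higher than LD in CE, by 0.18, and lower in RUN and L-RUN, by 0.12 and 0.20 (technical SD 0.031). Plcb1 had values of 12.81 in LD and 12.68 in CE, with 12.84 in H-RUN, 12.77 in RUN and 12.66 in L-RUN, with CE and L-RUN the low libraries.

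The other PLC beta genes differed from LD by at most 0.11 in size in any group. Plcg2, a PLC of microglia and other immune cells, had values of 8.58 in LD and 8.61 in CE, with 8.47 in H-RUN, 8.57 in RUN and 8.66 in L-RUN. It was 1 of 2 PLC genes, with Plch1, for which H-RUN was below L-RUN by at least 3 technical SDs, as it was for 8.44% of all expressed genes. Plcd3, of the calcium-driven delta class, had values of 7.16 in LD and 7.27 in CE, with 7.13 in H-RUN, 7.16 in RUN and 7.18 in L-RUN. Plcg1 (activated by receptor tyrosine kinases), Plcd1, Plcd4 and Plce1 (activated by Ras) ranged over 0.10 to 0.16.

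Of the type I PIP kinases, which make most PIP2, Pip5k1c had values of 13.20 in LD and 13.31 in CE, with 13.27 in H-RUN, 13.22 in RUN and 13.15 in L-RUN, so that CE was highest and L-RUN lowest. Pip5k1a ranged over 0.13, and Pip5k1b, at 0.03, had the smallest range of all 36 members. The type II kinases make PIP2 from another monophosphate and act mainly on internal membranes. Their gene Pip4k2b had values of 12.01 in LD and 12.03 in CE, with 11.96 in H-RUN, 11.90 in RUN and 11.80 in L-RUN. All 3 type II genes were lower than LD in L-RUN by at least 3 technical SDs, as were 19.5% of all expressed genes. They were lower by 0.15 for Pip4k2a, 0.21 for Pip4k2b and 0.20 for Pip4k2c. For Pip4k2a, however, CE was the lowest library, at -0.19 from LD.

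Set against all expressed genes, the members past the cut-off were lower than LD in every housing comparison that had any. The members were chosen with earlier results of these data known, so counts above the shares of all genes are no independent result. In CE, 2 members (Dgkh and Prkcd) were lower and 0 higher, where 0.266% and 0.332% of all expressed genes were. In RUN, 3 members (Dgkh, Dgki and Prkcb) were lower and 0 higher, beside 0.952% and 0.362% of all. In L-RUN, 5 members (Dgkh, Prkcb, Dgki, Prkcd and Dgkz) were lower and 0 higher, beside 2.33% and 0.797%. In H-RUN no member passed in either direction, beside 0.472% lower and 0.354% higher of all. These 4 comparisons share the LD library, and RUN also shares its mice with L-RUN and H-RUN, so that they are not independent of each other. H-RUN minus L-RUN, which does not use LD, had 4 members higher (Dgkh, Prkcb, Dgki and Prkca) and 0 lower, beside 0.974% and 0.561% of all.

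At 3 technical SDs, 12 members differed from LD in CE, 10 lower and 2 higher, where 23.7% of all expressed genes differed, 13.0% lower and 10.7% higher. In RUN, 11 members differed, 10 lower and 1 higher, beside 24.3% of all genes, 14.4% lower and 9.90% higher. In L-RUN, 16 members differed, 15 lower and 1 higher, beside 32.7% of all genes. In H-RUN, 9 members differed, 4 lower and 5 higher, beside 18.8% of all genes, 10.4% lower and 8.39% higher. Between H-RUN and L-RUN, 18 members differed, 16 of them higher and 2 lower in H-RUN, beside 22.1% of all genes, 13.7% higher and 8.44% lower. L-RUN was the lowest of the 5 libraries for 17 of 35 members and LD the highest for 15, and each held for 28.1% of all expressed genes.

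The median difference of the members was -0.066 in L-RUN, -0.057 in RUN, -0.033 in H-RUN, -0.023 in CE and 0.080 between H-RUN and L-RUN, while that of all expressed genes lay between -0.004 and 0.003. In L-RUN, 29 of 35 members and 6874 of 13550 expressed genes were below LD. By family, the L-RUN median was -0.010 for PLC genes, -0.144 for PIP kinases, -0.080 for DGK genes and -0.061 for PKC genes.

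The differences of all genes moved with transcript length, and the transcripts of the members are long, with a median of 4.6 kb against 3.52 kb. Over 12765 genes with a length, the Spearman correlation of length with the difference from LD was -0.33 in CE, -0.37 in H-RUN, -0.49 in RUN and -0.51 in L-RUN. Over the 35 expressed members it was weaker, at -0.16 in CE, -0.06 in H-RUN, -0.18 in RUN and -0.22 in L-RUN. Genes are not independent replicates, and all differences share the LD library. In L-RUN the median difference was 0.114 for genes under 1 kb and -0.136 for those over 8 kb. Dgkh has the longest transcript of the members, at 15.26 kb, and the trend at that length was -0.17 in L-RUN. With the trend removed, its L-RUN difference was -0.72. That of Prkcb (3.33 kb) stayed at -0.56, that of Dgki (4.6 kb) was -0.48 and that of Prkcd (2.85 kb) was -0.38. The values of Dgkz, at -0.28 in L-RUN, and of Prkca, at 0.26 between H-RUN and L-RUN, no longer passed the cut-off. The median of the members became -0.034 in L-RUN and 0.060 between H-RUN and L-RUN, and in CE it changed from -0.023 to 0.001.

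**Figure D4:**
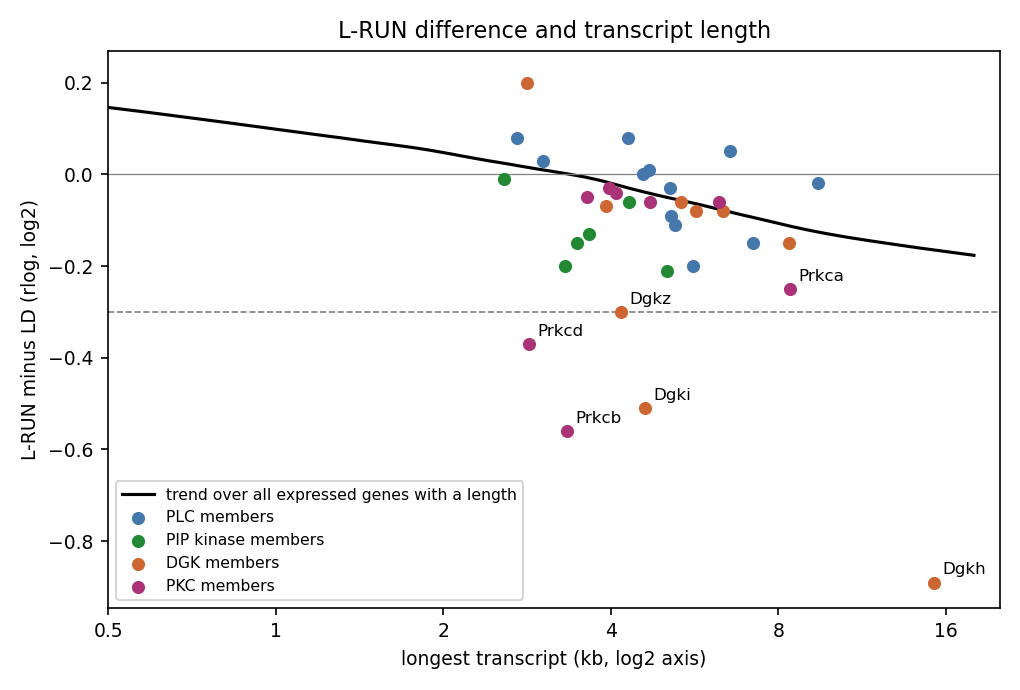
Difference between L-RUN and LD (rlog, log2) against the longest transcript (kb, log2 axis) for the 35 expressed members, coloured by family, with the lowess trend of all expressed genes (black line) and the cut-off of -0.3 (dashed). Dgkh, Prkcb, Dgki and Prkcd lie well below the trend at their length, and most other members lie near it.

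The RUN library served as a check of the members, since it pools what the H-RUN and L-RUN libraries hold apart. All 35 members lay within 2 SDs of the residual at their level of expression, where 95.1% of all expressed genes did. The SD was computed from this same residual, so a share of this size among all genes is built in. The member farthest off in size was Plcd4, at -0.071. For Dgkh the residual was 0.019, for Prkcb 0.030, for Dgki -0.026 and for Prkcd 0.022. The RUN value was between those of L-RUN and H-RUN for 25 of 35 members, as a pool of the same mice makes likely for any gene. The share over all expressed genes was not computed. H-RUN exceeded L-RUN by 0.65 for Dgkh, 0.41 for Prkcb, 0.36 for Dgki and 0.28 for Prkcd, each at least 3 technical SDs. These 4 genes were picked for their wide range over the same libraries. RUN holds the same RNA as L-RUN and H-RUN, so the technical SD does not include the spread between mice or their dissections.

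**Figure D5:**
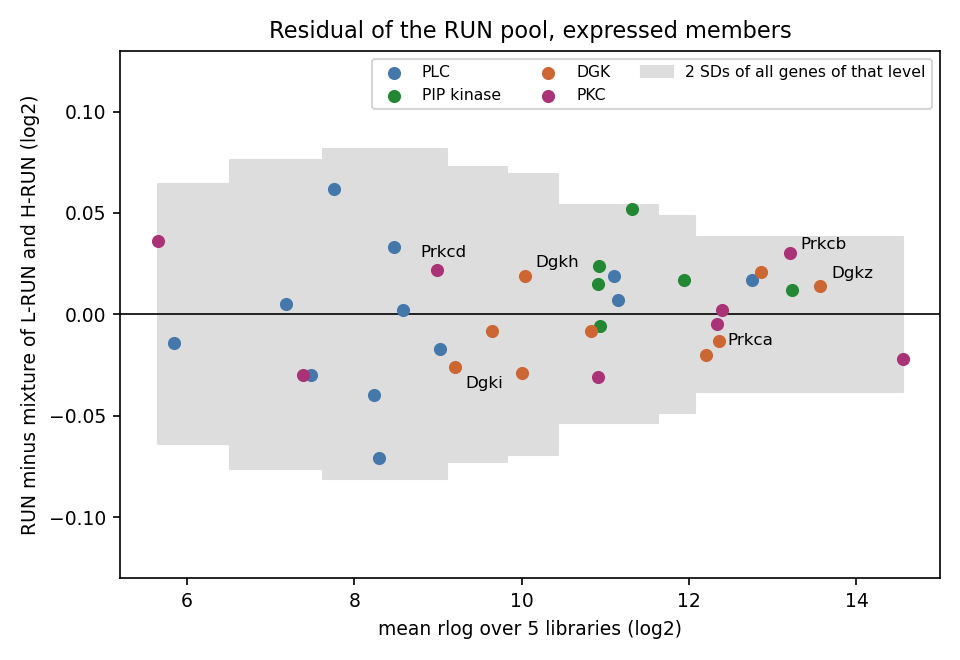
Residual of the RUN library against its H-RUN and L-RUN parts mixed equally (log2) by mean rlog over 5 libraries, for the 35 expressed members coloured by family, with 2 SDs of the residual of all expressed genes at that level in grey. All members lie inside the grey band, including the 6 genes named.

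Other genes of the pathway were taken from 11 lists by role, which were chosen with earlier results of these data known. The lists hold 100 expressed genes that are not members. In L-RUN 7 of them were lower and 2 higher than LD by the cut-off, in CE 2 and 1, in RUN 2 and 0, and in H-RUN 2 and 2. Of all expressed genes, 2.33% were lower and 0.797% higher in L-RUN, and 0.266% and 0.332% in CE. In RUN these shares were 0.952% and 0.362%, and in H-RUN 0.472% and 0.354%. With shares this small, most short role lists would hold no gene past the cut-off. Their median difference was -0.010 in CE, -0.018 in H-RUN, -0.004 in RUN and -0.027 in L-RUN. Of 16 receptors coupled to Gq, Htr2c (the serotonin 2C receptor) was higher than LD by 0.47 in CE and lower by 0.32 in H-RUN. Chrm3, a muscarinic receptor, was lower by 0.36 in L-RUN. None of the 3 Gq family alpha subunits passed.

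Of the 3 IP3 receptors, which release calcium, Itpr1 had values of 12.79 in LD and 12.42 in CE, with 12.39 in H-RUN, 12.31 in RUN and 12.18 in L-RUN. Unlike any member, it passed the cut-off in all 4 groups, and L-RUN was lowest. Itpr2 and Itpr3 did not pass in any. Among 10 genes of IP3 metabolism, Itpkb, a kinase that phosphorylates IP3, was lower by 0.39 in RUN and 0.40 in L-RUN, and Isyna1, which makes new inositol phosphate, was higher by 0.35 in L-RUN.

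None of the 14 genes of phosphatidylinositol supply passed. Of 9 PIP2 phosphatases and PI3K antagonists, Synj2 (synaptojanin 2, which breaks down PIP2) was lower by 0.41 in L-RUN. Of 12 other genes that DAG acts on, Rasgrp1, an activator of Ras, was lower than LD by 0.37 in CE and was 0.47 higher in H-RUN than in L-RUN. Of 5 lipases that use DAG or its product, Daglb was higher by 0.34 in H-RUN, and of 6 channels of the TRPC family, Trpc5 was lower by 0.44 in L-RUN.

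Of 14 substrates and anchors of PKC, Nrgn (neurogranin, a calmodulin-binding substrate) was higher than LD by 0.32 in H-RUN and 0.30 in L-RUN, and Add2 (an adducin of the cortical skeleton) was lower by 0.35 in L-RUN. Of 8 further PLC, PKC and PIP kinase genes, Plcxd2 was lower by 0.31 in L-RUN.

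The label of the tissue was checked against markers of cell types, none of which was listed at 0 in all 5 libraries. All 10 markers of dentate granule cells were expressed, among them Prox1 at 12.01 and C1ql2 at 11.69 in LD, and in L-RUN 1 was lower and 1 higher than LD by the cut-off. The median difference of these 10 from LD was -0.145 in CE, -0.098 in H-RUN, -0.108 in RUN and -0.151 in L-RUN, in each case below the median of the members. Their summed level on the linear scale ran from 41313 in CE to 46450 in LD. Trpc6 is also in the list of TRPC channels. Some markers of other cells moved in the same libraries as the members. The level of 13 expressed leptomeningeal markers, summed on the linear scale, was 6973 in LD and 8172 in CE, with 6304 in H-RUN, 12414 in RUN and 18049 in L-RUN. Of them, 4 were higher than LD by the cut-off in CE, 6 in RUN and 9 in L-RUN, and 2 were lower in H-RUN. Such sums are weighted towards the most abundant gene, here Ptgds, with rlog values of 11.64 in LD and 13.61 in L-RUN. The median difference of the 13 markers was 0.078 in CE, -0.022 in H-RUN, 0.187 in RUN and 0.396 in L-RUN. Of 7 markers of CA1 pyramidal cells, 4 were lower in L-RUN, and their summed level was 6253 in LD and 6544 in CE, with 5785 in H-RUN, 5419 in RUN and 4835 in L-RUN. The astrocyte sum was 106952 in LD and 87889 in L-RUN, with 2 of 7 markers lower and 1 higher. Its most abundant gene was Slc1a2, at 16.06 in LD and 15.70 in L-RUN, and the median difference of the 7 markers in L-RUN was -0.087. For CA2 and CA3 pyramidal, thalamic, interneuron, oligodendrocyte, microglial, endothelial and choroid plexus lists, at most 1 marker passed in L-RUN, and the median differences lay between -0.169 for oligodendrocytes and 0.057 for thalamic neurons. The oligodendrocyte sum was 34473 in LD and 32136 in CE, with 33649 in H-RUN, 31653 in RUN and 29719 in L-RUN. No oligodendrocyte marker passed the cut-off, and their median difference between H-RUN and L-RUN was 0.157. Only 2 of 7 choroid plexus markers were expressed, of which Ttr was higher than LD by 0.62 in CE. The part of these cells in the differences of the members was not tested, and in pooled tissue fewer cells of a type cannot be told apart from less RNA per cell.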

How the data were processed

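RNA of the DG was sequenced as 1 library of pooled polyadenylated RNA per group (LD, CE, RUN, L-RUN and H-RUN), grouped by their labels. According to the methods and the processing notes, reads were trimmed, mapped to mm10 with TopHat (2.0.10) and counted on RefSeq genes with HTSeq. The authors then normalized all libraries at once with DESeq2 (1.10.1), and the deposited values are its regularized log values on the log2 scale, 1 per gene symbol and library. Counts were not used here, so depth and the precision it gives are unknown. Of 23420 genes, 4588 were at 0 in all libraries and 13550 had a mean of at least 5.

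Differences between libraries were called at 0.3 or more in size, as in the methods, with no test, since each group is 1 library. The technical SD came from the median absolute deviation of RUN minus its H-RUN and L-RUN parts, averaged on the linear scale, by decile of expression, a residual whose variance is 1.5 times a single library's. Transcript lengths and overlaps came from GENCODE M21 on GRCm38 (94.2% of expressed genes matched), and the length trend was a lowess curve (fraction 0.3). Promoter sequences came from RefSeq (GRCm38.p6). All 36 members are named. A member past 0.3 in any comparison or with the largest range in its class is given in all libraries, and of each role list the genes past 0.3 are named, at most 4, except 1 that is not reported here. The members, role lists and marker lists were chosen with earlier results of these data known. Alternatives were a cut-off of 0.4 or of 3 technical SDs, centring, quantile normalization, other filters, LD and CE averaged as baseline, removal of the length trend and a mixture on the log scale. Scripts were tested on simulated data. Python 3.11.15, pandas 2.3.3, numpy 2.4.6 and statsmodels 0.14.6 were used.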

Additional observations from a re-analysis of the deposited data

Results flagged for a closer look

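In 3 members, groups lay on opposite sides of LD, each by at least 3 technical SDs, and whether the groups differ was not tested. The share of all expressed genes that meet this rule was not computed, so the count cannot be called unusual. Plch2 was 0.18 above LD in CE and 0.12 and 0.20 below it in RUN and L-RUN, so that CE exceeded RUN by 0.30 and L-RUN by 0.38 (technical SD 0.031). Dgkb was 0.16 above LD in H-RUN and below it by 0.09 in CE and 0.08 in L-RUN, so that CE minus H-RUN was -0.25 and L-RUN minus H-RUN was -0.24 (technical SD 0.022). Prkca was below LD by 0.25 in L-RUN and above it by 0.07 in H-RUN, and L-RUN minus H-RUN was -0.32 (technical SD 0.022).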

How the results depend on the processing

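Centring, quantile normalization, removal of the length trend and the averaged baseline can move single differences. Under these, no difference of a member past the cut-off changed direction. The other alternatives leave single differences as they are. A cut-off of 0.4 lowered the count of members to 1 in RUN, 3 in L-RUN and 2 between H-RUN and L-RUN. A cut-off of 3 technical SDs raised it to 12 in CE, 11 in RUN, 16 in L-RUN, 9 in H-RUN and 18 between H-RUN and L-RUN. With LD and CE averaged as baseline, 0 members passed in RUN and 3 in L-RUN (Dgkh, Prkcb and Dgki), and Prkcd had -0.17 in L-RUN. This baseline contains CE, where Dgkh, Dgki, Prkcb and Prkcd were also below LD. Removal of the length trend moved the median of the members to -0.023 in RUN, -0.034 in L-RUN and 0.001 in CE, and 12 of 14 single differences still passed the cut-off. Under quantile normalization 12 of 14 passed, without Dgkz in L-RUN at -0.26 and Prkca between H-RUN and L-RUN, just under the cut-off at a rounded 0.30. Centring on the median of all genes left 13, without Dgkz in L-RUN, just short of the cut-off at a rounded -0.30. A mixture on the log scale left the residual SD at 0.0316. No paired analysis was possible because each group has 1 library. Without replicates, the spread between mice and cages cannot be set against any difference, and unknown depth leaves the shrinkage of weakly expressed members, such as Plcb2 and Prkch, unmeasured.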
